A study of Homo sapiens with 2 samples.

Results

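HLA class II genes were followed as 10 genes chosen by symbol out of the 32738 genes counted. They are the antigen-presenting pairs *HLA-DRA* and *HLA-DRB1* (DR), *HLA-DPA1* and *HLA-DPB1* (DP) and *HLA-DQA1* and *HLA-DQB1* (DQ), the peptide-exchange pair *HLA-DMA* and *HLA-DMB* (DM), the invariant chain gene *CD74* and the transactivator gene *CIITA*. All 10 had unique molecular identifiers (UMIs, each a single captured transcript) in the cells retained, from 1552 UMIs of *HLA-DQA1* in 519 cells to 68172 of *CD74* in 6346. In these data, the HLA genes and *CD74* were far higher in cells with at least 3 complement C1Q UMIs than in the other groups formed. *CIITA* was also highest there, by a smaller margin. In cells with hemoglobin or megakaryocyte transcripts, and less so in CD34/GATA2 cells and cells outside the named groups, the DP genes outweighed DR.

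Class II molecules are heterodimers of an alpha and a beta chain that display peptides to CD4+ T cells. They assemble in the endoplasmic reticulum on the invariant chain, and DM exchanges the remaining invariant chain fragment for antigenic peptide in the endosome. Macrophages, dendritic cells and B cells express them constitutively. CIITA binds no DNA itself and is recruited by the RFX, NF-Y and CREB proteins that sit on the X and Y boxes upstream of class II genes. Human hematopoietic stem and progenitor cells carry DR, and it is lost on commitment to the granulocyte and erythroid lineages.

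The cells came from iPS11, an established human induced pluripotent stem cell line, and results are thus those of 1 line. CD34+ cells made from it were cultured for 5 days through the endothelial-to-hematopoietic transition (EHT) on 4 coatings, which were uncoated plastic, VCAM1, DLL4 and DLL4+VCAM1, and the nonadherent cells were collected. All wells shared the same EHT medium, 3 wells of a coating were pooled under 1 hashtag antibody, and the 4 pools were captured as 1 library. Hashtags 0252, 0253, 0254 and 0255 are compared by number, since the sources used here do not state which coating each one marked.

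Of 10836 barcodes, 8488 were called for 1 hashtag, and 7550 of these were within the limits of 36000 UMIs, 6000 genes and 18% mitochondrial UMIs. These cells held 142110950 UMIs, with a median of 18318.5 per cell and between 28522216 and 40416478 per hashtag. With 1 library there are no replicates and no test was possible. Levels are the summed UMIs of a group per 1000000 of its UMIs (CPM), and brackets give 95% intervals that cover counting error only. Because a UMI marks 1 transcript at its 3′ end, levels of different genes were compared without dividing by length. "Class II level" means the sum of the 8 HLA genes. A lower level in a group can mean fewer cells with the transcript or less of it per cell, and shares of cells are given where that matters.

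Cells were grouped by their own transcripts. C1Q-positive cells (970) had at least 3 summed UMIs of *C1QA*, *C1QB* and *C1QC*. Cells with no C1Q UMI were divided, in this order, into granule cells (928; *MPO*, *AZU1*, *ELANE* and *PRTN3* at 2000 CPM or more), globin cells (219; hemoglobin genes at 5000 CPM or more), megakaryocyte gene cells (48), SPINK2 cells (992; at least 3 *SPINK2* UMIs), CD34/GATA2 cells (1355; at least 2 UMIs of each) and C1Q-negative myeloid cells (745; *LSP1*, *ABI3* and *IFI16* at 500 CPM or more). The 700 cells with 1 or 2 C1Q UMIs, 87 cells with collagen transcripts and 1506 other cells completed the 7550. Median depth was 14090 UMIs in C1Q-positive, 17576 in C1Q-negative myeloid, 20878 in SPINK2, 20501 in CD34/GATA2, 18597.5 in granule and 18766 in globin cells.

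Marker lists gave the setting of each gate. In C1Q-positive cells, 9 of 10 macrophage markers reached 10 CPM, led by *SPP1* at 1983 CPM, *APOE* at 321 CPM and *CSF1R* at 243 CPM, and 5 of 10 dendritic markers did so, led by *CLEC10A* at 143 CPM. Hashtag 0253 gave 16118 of the 29648 *SPP1* UMIs of this gate. The share of C1Q-positive cells with an *SPP1* UMI ran from 32.9 to 50% over hashtags. Summed over each list, these cells had 2817 CPM of macrophage, 905 of monocyte, 302 of dendritic, 86.1 of plasmacytoid, 49.3 of T cell, 43.9 of stromal, 17.2 of B cell, 10.8 of eosinophil, 4.95 of mast cell/basophil and 2.34 of endothelial markers. In C1Q-negative myeloid cells *CD14* was at 1.72 CPM, and 4 of 10 macrophage markers reached 10 CPM. The macrophage list was at 387 CPM there. *SPP1* made up 221 CPM of this, and hashtag 0253 gave 2117 of its 2963 UMIs. The monocyte list was at 138 CPM and the dendritic list at 128 CPM. The T cell list was higher than in C1Q-positive cells, at 182 CPM with *CD3D* at 108. The T cell list was at 231 CPM in SPINK2 and 42.3 CPM in CD34/GATA2 cells. The B cell list was at 186 CPM in SPINK2 and 204 CPM in CD34/GATA2 cells, mostly *IGLL1*, a pre-B cell receptor chain (152 and 155 CPM), with *CD79B* at 20.5 and 32.2 CPM, *CD79A* at 11.4 and 16.4 CPM and *MS4A1* at 0 in both. CD34/GATA2 cells also held 143 CPM of the mast cell/basophil and 153 CPM of the eosinophil list. The part of these other programs in the class II levels was not tested.

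The X and Y boxes were looked for in the reference promoters of the members, because these boxes are where CIITA is brought to the DNA. Promoters of 8 of the 10 genes were matched by symbol in RefSeq (GRCh38.p14), and *HLA-DRA* and *CIITA* had no entry. In the 250 bases before the start, the X box letters (C, any base, AG, any 2 bases, AC, any base, GA) and the Y box letters ATTGG (the reverse complement of CCAAT) were searched on both strands. The X letters were loosened after the members' promoters had been read, so the members' own counts are partly built in and are no evidence of enrichment. They were present in 6 of the 8 genes and in 2.59% of all 35116 promoters, and the Y letters in 7 of the 8 genes and in 32.0% of promoters. The pair, with 10 to 30 bases between, was found in *HLA-DRB1*, *HLA-DQA1*, *HLA-DQB1* and *HLA-DMA* and in 30 of all promoters (0.0854%). These 30 included 6 HLA class II genes, adding *HLA-DRB5* and *HLA-DOA*, and also *C1QA*. The 4 stretches are printed 5′ to 3′ on the gene's strand, with the X letters and then the Y letters in capitals, and are those of the reference assembly and not of the line.
HLA-DRB1, chr6:32589886-32589933, minus strand: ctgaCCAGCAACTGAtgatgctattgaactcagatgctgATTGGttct
HLA-DQA1, chr6:32637298-32637346, plus strand: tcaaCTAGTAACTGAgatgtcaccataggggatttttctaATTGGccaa
HLA-DQB1, chr6:32666737-32666784, minus strand: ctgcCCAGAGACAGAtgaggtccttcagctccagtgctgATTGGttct
HLA-DMA, chr6:32953168-32953216, minus strand: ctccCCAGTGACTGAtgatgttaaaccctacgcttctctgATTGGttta

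The spacing of the boxes was close to constant, with 24 bases between them in *HLA-DRB1* and *HLA-DQB1* and 25 in *HLA-DQA1* and *HLA-DMA*. *HLA-DPA1* (in 1 of its 2 promoters) and *HLA-DMB* held the X letters without the pair, and *HLA-DPB1* and *CD74* held the Y letters without the X letters. A missing match says only that these letters are absent from the window.

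In the hg19 build of the counts, the 8 HLA genes lie on chromosome 6 between *HLA-DRA* (32407655 to 32412823, plus strand) and *HLA-DPB1* (33043767 to 33057473, plus strand). *CD74* lies on chromosome 5 (149781200 to 149792532, minus strand) and *CIITA* on chromosome 16 (10960079 to 11036878, plus strand). *HLA-DPA1* overlaps *HLA-DPB1* on the opposite strand from 33043767 to 33048552, and reads there depend on the strand setting of the counting. *HLA-DRB1*, *HLA-DQA1* and *HLA-DQB1* have near-identical copies and differ between individuals and the reference, so that their levels relative to other genes are uncertain. The copies *HLA-DRB5*, *HLA-DQA2* and *HLA-DQB2* were at 2.88, 0.401 and 1.14 CPM in C1Q-positive cells.

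*HLA-DRA*, the invariable alpha chain of DR, was at 1329.7 CPM (1311 to 1348) in C1Q-positive cells and at 344.5 CPM (335 to 355) in C1Q-negative myeloid cells. It was at 35.4 CPM (32.9 to 38.0) in SPINK2, 18.6 CPM (17.0 to 20.2) in CD34/GATA2, 15.4 CPM (13.7 to 17.4) in granule and 12.5 CPM (9.34 to 16.3) in globin cells. The order of the first 4 groups was clear of counting error, whereas the intervals of CD34/GATA2 and granule cells overlapped, as did those of granule and globin cells. With every cell thinned to 5000 UMIs, 89.1% of C1Q-positive, 53.3% of C1Q-negative myeloid, 10.9% of SPINK2, 7.16% of CD34/GATA2, 6.86% of granule and 6.51% of globin cells had an *HLA-DRA* UMI (unthinned, 95.3, 71.5, 26.4, 23.0, 19.6 and 16.4%). The share in CD34/GATA2 cells, 7.16% (5.84 to 8.66), could not be told from that in granule cells, 6.86% (5.31 to 8.69), while the ratio of their levels was 1.20 (1.04 to 1.40) for *HLA-DRA* and 2.14 (1.79 to 2.57) for *HLA-DRB1*. Granule cells were no common floor, since CD34/GATA2 cells lay below them for *HLA-DMB* (0.216, 0.128 to 0.353) and *CIITA* (0.537, 0.359 to 0.801).

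**Figure D1:**
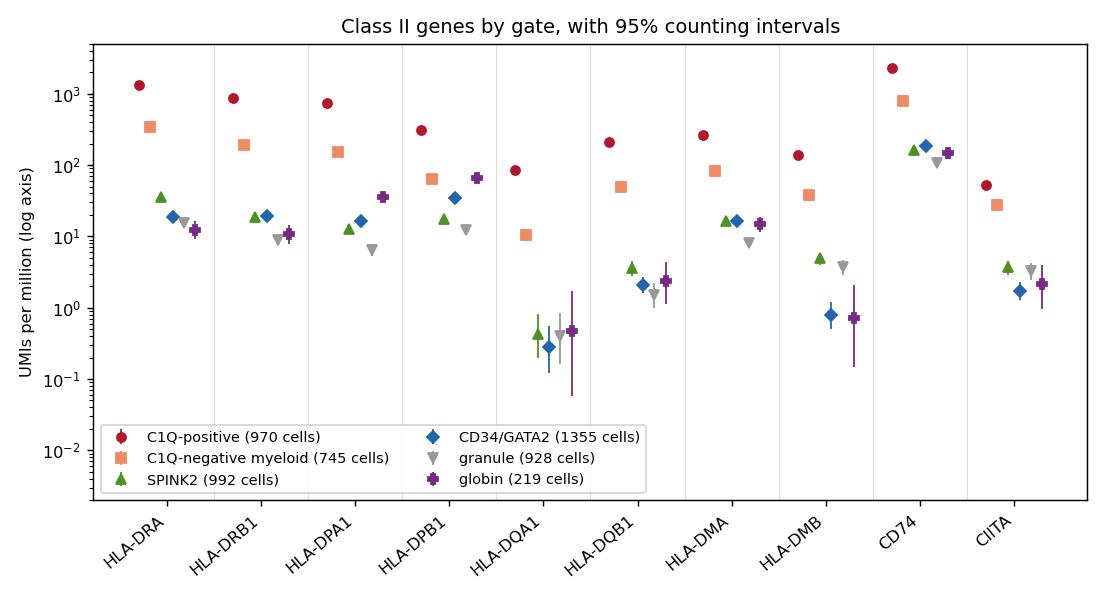
Levels of the 10 class II genes in 6 gates, in CPM on a log axis, with 95% counting intervals as bars (hidden by the marker where small). C1Q-positive cells are highest for every gene. Globin cells lie above CD34/GATA2, SPINK2 and granule cells beyond the intervals for *HLA-DPA1* and *HLA-DPB1* (by value also for *HLA-DQA1*, from 2 UMIs).

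*HLA-DRB1*, the DR beta chain, followed the same first step, at 884 CPM in C1Q-positive and 194 CPM in C1Q-negative myeloid cells. It did not separate SPINK2 (18.9 CPM, 17.1 to 20.8) from CD34/GATA2 cells (19.1 CPM, 17.6 to 20.8). *HLA-DRA* UMIs per *HLA-DRB1* UMI were 1.5 (1.47 to 1.54) in C1Q-positive, 1.78 (1.70 to 1.87) in C1Q-negative myeloid, 1.88 (1.66 to 2.12) in SPINK2 and 0.971 (0.860 to 1.10) in CD34/GATA2 cells. The UMI counts of *HLA-DRA* and *HLA-DRB1* were thus unequal in 3 of these 4 gates and not distinguishable in CD34/GATA2 cells. As the level of *HLA-DRB1* relative to other genes is uncertain, these ratios do not give the balance of the DR chains.

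The DP pair was arranged differently. *HLA-DPA1* was at 753 CPM (739 to 767) in C1Q-positive, 153 CPM (146 to 159.5) in C1Q-negative myeloid, 12.8 CPM (11.3 to 14.4) in SPINK2, 16.5 CPM (15.0 to 18) in CD34/GATA2, 6.51 CPM (5.37 to 7.83) in granule and 36 CPM (30.5 to 42.2) in globin cells. *HLA-DPB1* was at 309.8 CPM (301 to 319), 63.0 CPM (58.9 to 67.4), 17.4 CPM (15.7 to 19.3), 34.2 CPM (32.1 to 36.4), 12.5 CPM (10.8 to 14.2) and 66.8 CPM (59.3 to 75.1) in the same order. Globin cells therefore had as much *HLA-DPB1* as C1Q-negative myeloid cells within counting error, with less *HLA-DRA* than any of the 5 other gates by value. The 48 megakaryocyte gene cells had 62.8 CPM of *HLA-DPB1* (48.6 to 79.9) and 31.4 CPM of *HLA-DPA1* (21.6 to 44.1).

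The alpha to beta balance of DP turned over between the gates. *HLA-DPA1* exceeded *HLA-DPB1* by 2.43 to 1 (2.35 to 2.51) in C1Q-positive and 2.42 to 1 (2.24 to 2.63) in C1Q-negative myeloid cells. It was also the higher in cells with 1 or 2 C1Q UMIs (1.98, 1.82 to 2.17) and in cells with collagen transcripts (1.89, 1.35 to 2.67). *HLA-DPA1* was the lower of the pair in the following gates. The ratio was 0.735 (0.626 to 0.862) in SPINK2, 0.482 (0.431 to 0.538) in CD34/GATA2, 0.523 (0.413 to 0.660) in granule and 0.539 (0.440 to 0.658) in globin cells. The ratios above 1 and those below 1 were apart by more than counting error. The part of free transcripts and of reads in the overlap of the pair was not tested.

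DQ was nearly restricted to the C1Q-positive and myeloid cells. *HLA-DQB1* was at 212 CPM in C1Q-positive and 49.0 CPM in C1Q-negative myeloid cells, against 3.58 CPM in SPINK2, 2.12 CPM in CD34/GATA2, 1.5 CPM in granule and 2.35 CPM in globin cells. *HLA-DQA1* stood at 85.3 CPM (80.7 to 90.1) and 10.3 CPM (8.66 to 12.2) in the first 2 gates and rested on 9, 8, 7 and 2 UMIs in the others. It gave 0.402 UMIs per *HLA-DQB1* UMI (0.377 to 0.429) in C1Q-positive cells and 0.210 (0.174 to 0.253) in C1Q-negative myeloid cells. Outside these gates, cells with 1 or 2 C1Q UMIs had *HLA-DQB1* at 28.5 CPM and *HLA-DQA1* at 6.80 CPM. Cells with collagen transcripts had 25.3 CPM of the DQ pair, from 33 UMIs.

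DM, which edits the peptides that class II molecules carry, split into its chains. *HLA-DMA* was at 263 CPM in C1Q-positive and 83.4 CPM in C1Q-negative myeloid cells and was equal in SPINK2 (16.3 CPM, 14.6 to 18.1) and CD34/GATA2 cells (16.3 CPM, 14.9 to 17.9). *HLA-DMB* was at 138 CPM in C1Q-positive, 38.1 CPM in C1Q-negative myeloid, 4.90 CPM (4.01 to 5.94) in SPINK2, 3.69 CPM (2.84 to 4.71) in granule, 0.798 CPM (0.506 to 1.20) in CD34/GATA2 and 0.706 CPM (0.146 to 2.06) in globin cells. The ratio of *HLA-DMA* to *HLA-DMB* was 1.91 (1.81 to 2.01) in C1Q-positive cells and 20.5 (13.5 to 32.6) in CD34/GATA2 cells. CD34/GATA2 cells thus held an alpha chain transcript with 23 UMIs of its partner in 1355 cells.

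**Figure D2:**
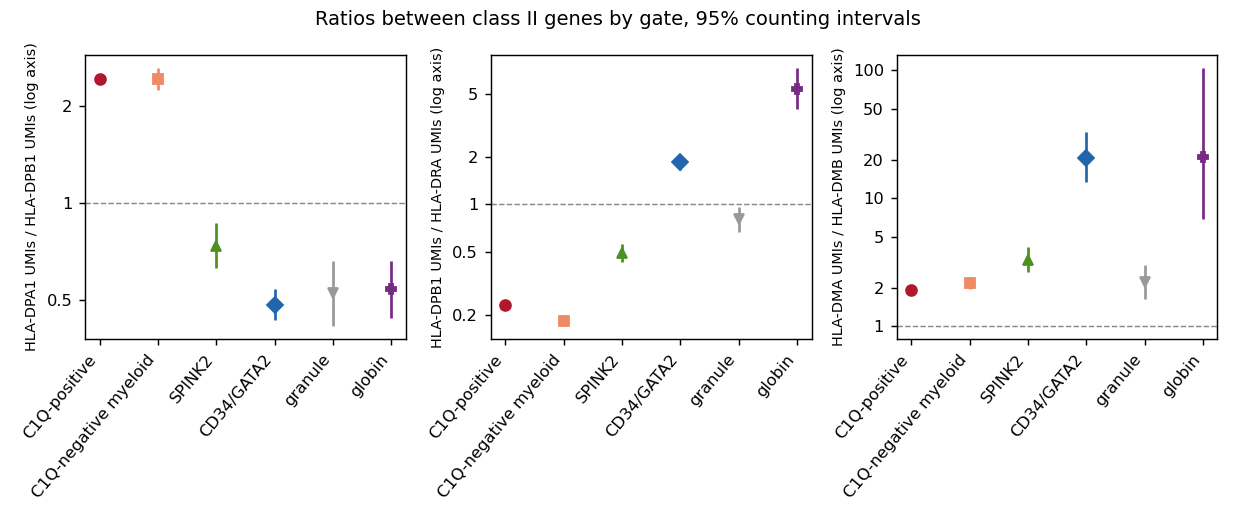
UMIs of *HLA-DPA1* per *HLA-DPB1*, of *HLA-DPB1* per *HLA-DRA* and of *HLA-DMA* per *HLA-DMB* in 6 gates, on log axes, with 95% counting intervals and a dashed line at equal numbers. The DP ratio crosses from 2.43 in C1Q-positive to 0.482 in CD34/GATA2 cells, and *HLA-DPB1* per *HLA-DRA* reaches 5.36 in globin cells.

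*CD74*, which chaperones the other chains and also has a receptor role of its own, was the most abundant member in all 6 gates compared. It was at 2328 CPM in C1Q-positive and 791 CPM in C1Q-negative myeloid cells, and at 166 CPM in SPINK2, 186 CPM in CD34/GATA2, 109 CPM in granule and 149 CPM in globin cells. Its fall from C1Q-positive to granule cells was 21.4-fold (20.5 to 22.5), against 69.6-fold (65.4 to 74.2) for the class II level. There were 0.586 *CD74* UMIs per class II UMI in C1Q-positive cells, 0.846 in C1Q-negative myeloid, 1.51 in SPINK2, 1.72 in CD34/GATA2, 1.90 in granule and 1.03 in globin cells. After thinning to 5000 UMIs, 720 of 992 SPINK2 cells (72.6%) had no class II UMI, and 442 (44.6%) had no *CD74* UMI either.

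*CIITA*, the master coactivator of the others, was at 51.9 CPM (48.3 to 55.7) in C1Q-positive cells and 27.3 CPM (24.6 to 30.3) in C1Q-negative myeloid cells. It was at 3.68 CPM (2.91 to 4.59) in SPINK2, 3.23 CPM (2.44 to 4.19) in granule, 2.12 CPM (0.968 to 4.02) in globin and 1.73 CPM (1.29 to 2.29) in CD34/GATA2 cells. At 5000 UMIs per cell, 21.6% of C1Q-positive, 13.0% of C1Q-negative myeloid, 1.61% of SPINK2, 1.03% of CD34/GATA2 and 1.74% of granule cells had a *CIITA* UMI (unthinned, 48.0, 32.9, 6.96, 3.32 and 5.17%). The SPINK2 and CD34/GATA2 shares were not above that of granule cells, and the part of free transcripts in them was not tested. The C1Q-positive level of *CIITA* was 33.1 CPM with the gate at 1 C1Q UMI and 31.5 CPM at a mitochondrial limit of 10%.

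Within a gate, *CIITA* and class II went together cell by cell. Among thinned C1Q-positive cells, 207 with a *CIITA* UMI had a mean class II count of 33.3 UMIs (SD 26.7), and 751 without one had 20.6 (SD 18.8). Among C1Q-negative myeloid cells the means were 12.3 (SD 18.6, 95 cells) and 4.39 (SD 7.11, 638 cells). The few SPINK2 cells with a *CIITA* UMI (16) had a mean of 2.56 (SD 3.22) against 0.582 (SD 1.79) without, and the 14 such CD34/GATA2 cells 1.64 (SD 2.62) against 0.549 (SD 1.03). The C1Q counts of the same C1Q-positive cells were closer, at 10.1 (SD 11.1) with and 8.33 (SD 10.0) without a *CIITA* UMI. These distributions overlapped widely, and cells of 1 library are not replicates.

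The isotype balance gave each gate a profile. Of the UMIs of the 8 HLA genes in C1Q-positive cells, 55.7% (55.3 to 56.1) were DR, 26.7% (26.4 to 27.1) DP, 7.48% (7.27 to 7.70) DQ and 10.1% (9.83 to 10.3) DM. C1Q-negative myeloid cells had nearly the same, with 57.6% DR, 23.1% DP, 6.34% DQ and 13.0% DM. SPINK2 cells retained the DR lead at 49.4% (47.4 to 51.5) over 27.6% DP. In CD34/GATA2 cells DP led, with 47.0% (45.2 to 48.7) over 34.9% DR (33.2 to 36.6), and in globin cells DP made up 71.2% (67.4 to 74.7) and DR 16.1% (13.3 to 19.3). Megakaryocyte gene cells had 64.7% DP (56.6 to 72.3) and 20.3% DR. Granule cells were at 42.7% DR and 33.2% DP.

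**Figure D3:**
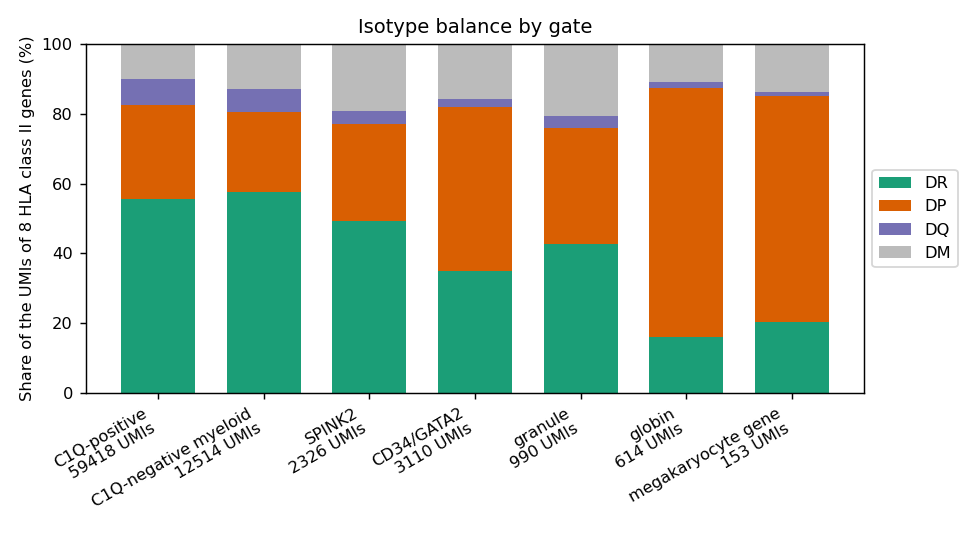
Share of DR, DP, DQ and DM in the summed UMIs of 8 HLA class II genes (percent, bars stacked to 100), by gate, with the number of UMIs under each name. DR is the largest part in C1Q-positive, C1Q-negative myeloid, SPINK2 and granule cells, and DP in CD34/GATA2, globin and megakaryocyte gene cells.

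C1Q-positive cells were compared with C1Q-negative myeloid cells to ask how far class II follows complement gene expression among myeloid cells. The class II level was 3974 CPM (3942 to 4006) and 935 CPM (918 to 951), a ratio of 4.25 (4.17 to 4.33). Of the 10 members, 9 were at least 2-fold higher in C1Q-positive cells, beside 7.73% of the 13319 genes compared. None was 2-fold lower, as 2.69% of genes were. The median member was 2.03 higher on the log2 scale, and the median of all genes was at -0.02. *HLA-DQA1* differed by 8.27-fold (6.93 to 9.93), *HLA-DPA1* by 4.93-fold (4.70 to 5.17), *HLA-DRA* by 3.86-fold (3.74 to 3.99) and *CD74* by 2.94-fold (2.88 to 3.01). *CIITA* was the exception, with a ratio of 1.90 (1.67 to 2.16). The ratio of the class II levels moved to 2.5 if cells with 1 or 2 C1Q UMIs were counted as C1Q-positive, and to 6.54 at a mitochondrial limit of 10%, which left 72 and 63 cells.

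The class II level rose with the number of C1Q UMIs in a cell. It was 200.0 CPM in the 5793 cells with no C1Q UMI, 591 CPM with 1 or 2, 2464 CPM with 3 to 5, 2873 CPM with 6 to 10, 3807 CPM with 11 to 20, 5307 CPM with 21 to 40 and 5865 CPM above 40. *HLA-DQA1* went from 36.6 CPM at 3 to 5 C1Q UMIs to 154 CPM above 40. *CIITA* changed less over that span, from 44.6 CPM (37.4 to 52.9) to 63.2 CPM (53.5 to 74.3). Deeper cells reach a C1Q bin more easily, but the bins from 3 UMIs up were the shallower ones. Their median depth lay between 12823 and 15635 UMIs, against 18790 with no C1Q UMI and 19417 with 1 or 2. The part of depth in this trend was not tested.

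**Figure D4:**
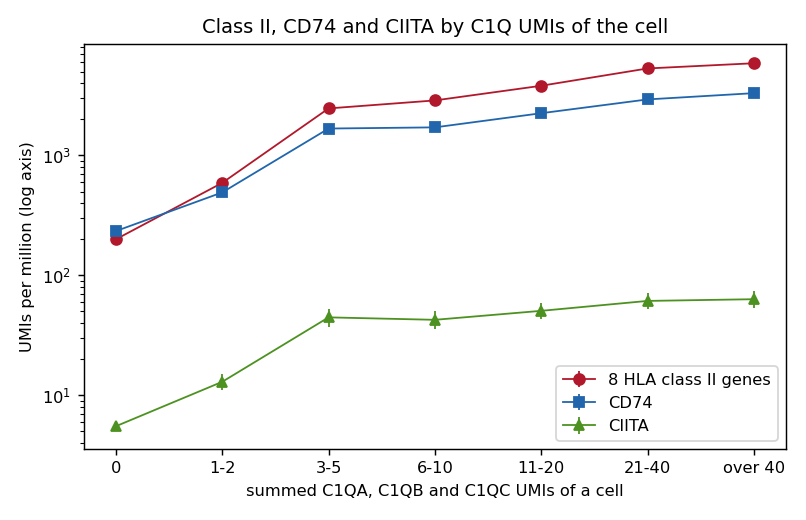
Level of the 8 HLA class II genes, *CD74* and *CIITA* in CPM (log axis) in cells binned by their summed C1Q UMIs, with 95% counting intervals. The class II level goes from 200.0 with no C1Q UMI to 5865 above 40 UMIs.

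C1Q-positive cells were themselves uneven. Ranked by class II CPM, the 242 cells at the top had a level of 9974 CPM and the 242 at the bottom 671 CPM. These values were set by the ranking and are a description. *HLA-DQA1* had the widest span of the members, at 304 and 2.89 CPM, and *CIITA* the narrowest, at 91.7 and 19.8 CPM. Of the 6813 genes compared, members included, 3.43% were at least 2-fold higher in the top cells and 6.43% at least 2-fold lower. Genes outside the members are named next. The 5 genes with the highest ratio were *IDO1*, a tryptophan-degrading enzyme (108 and 4.68 CPM), *CD207*, the lectin langerin of Langerhans cells (66.7 and 4.23), *LTB*, the cytokine lymphotoxin beta (1405 and 130.3), *PARM1* (36.2 and 3.56) and the chemokine receptor gene *CXCR3* (52.7 and 5.57).

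At the other end were *FABP4*, a fatty acid-binding protein of macrophages (2.11 CPM in the top and 268 in the bottom cells), *MMP7*, a matrix metalloproteinase (0.351 and 27.8), *S100A8*, a calprotectin subunit (7.38 and 252), *EMP1* (1.41 and 26.7) and *LPL*, lipoprotein lipase (2.46 and 46.8). *SPP1* was at 426 CPM in the top and 3317 CPM in the bottom cells, and the granule gene *MPO* at 54.4 and 422 CPM. C1Q itself was at 2724 and 633 CPM. Hashtag 0253 gave 107 cells to the bottom and 40 to the top, and median depth was 17435.5 and 11052.5 UMIs. The part of depth, of *MPO*-bearing cells and of hashtag 0253 in this contrast was not tested.

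A set of C1Q-negative cells was picked by a high *HLA-DRA* count, so that its high *HLA-DRA* level follows from the choice. Among cells without a C1Q UMI, 194 (3.32%) had at least 10 *HLA-DRA* UMIs, of which 170 were C1Q-negative myeloid and 18 SPINK2 cells. Scrublet, a doublet caller, marked 0 of the 194 and 5 of all 745 C1Q-negative myeloid cells, beside 63 of all 7550 cells. With so few calls in all, the count of 0 says little, and the part of mixed droplets was not tested. The 194 cells came from all hashtags, with 50, 33, 50 and 61 cells from 0252, 0253, 0254 and 0255. Of 10 dendritic markers, 5 reached 10 CPM in them and 5 lay between 0.289 and 2.31 CPM (*XCR1*, *FCER1A*, *LAMP3*, *FLT3* and *CLEC9A*). *CD14* was at 4.34 CPM, *CLEC10A* at 52.1 CPM, *BATF3*, a transcription factor of dendritic cells, at 33.9 CPM, *CD1C* at 29.2 CPM and *MARCH1*, the ubiquitin ligase that turns over class II, at 57.0 CPM. The summed dendritic list was at 171 CPM against 302 in C1Q-positive cells, and the T cell list at 122 CPM against 49.3. The macrophage list was at 483 CPM against 2817, of which *SPP1* made up 288 and 1983 CPM.

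These cells supplied much of the C1Q-negative myeloid level. The 170 cells were 22.8% of that gate and held 69.6% of its *HLA-DRA*, 81.9% of its *HLA-DQA1* and 46.4% of its *CIITA* UMIs. Picking cells by their *HLA-DRA* count raises their share of *HLA-DRA*, and of genes that go with it, by construction. The rest of the gate was at 135 CPM of *HLA-DRA*, which leaving out cells by their *HLA-DRA* count lowers by construction, and at 18.9 CPM of *CIITA*.

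SPINK2 and CD34/GATA2 cells had like class II levels made up of different genes. The SPINK2 level drew in part on 18 cells with many *HLA-DRA* UMIs, described below. The level was 109.6 CPM (105 to 114) in SPINK2 and 108 CPM (104 to 112) in CD34/GATA2 cells, a ratio of 1.02 (0.963 to 1.07), which became 0.556 at a mitochondrial limit of 10% with 99 and 32 cells left. *HLA-DMB* was 6.15-fold (3.88 to 10.1) and *CIITA* 2.12-fold (1.47 to 3.09) higher in SPINK2 cells, both against CD34/GATA2 levels below those of granule cells, which made 2 of the 9 members with enough UMIs, beside 4.92% of 14194 genes. No member was 2-fold lower, as 6.48% of genes were. *HLA-DRA* was 1.91-fold higher (1.70 to 2.13) and *HLA-DPB1* was at 0.510 (0.451 to 0.575) of its CD34/GATA2 level. For *HLA-DRB1* (0.987, 0.865 to 1.12) and *HLA-DMA* (0.995, 0.864 to 1.15) the interval of the ratio included 1. The median member was at -0.01 and the median gene at 0.05 on the log2 scale.

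Few SPINK2 cells carried much of their DR. The 18 SPINK2 cells with at least 10 *HLA-DRA* UMIs were 1.81% of the gate and held 38.4% of its *HLA-DRA*, 38.5% of its *HLA-DMB*, 9.46% of its *HLA-DPB1* and 7.69% of its *CIITA* UMIs. Without them *HLA-DRA* was at 22.1 CPM (20.2 to 24.2), against 17.9 CPM (16.4 to 19.5) in CD34/GATA2 cells without their 2 such cells. *HLA-DMB* was then at 3.07 CPM (2.36 to 3.92) and 0.799 CPM (0.507 to 1.20). The SPINK2 over CD34/GATA2 ratio without these cells was 0.727 (0.684 to 0.772) for the class II level, 1.24 (1.09 to 1.41) for *HLA-DRA*, 0.656 (0.564 to 0.763) for *HLA-DRB1*, 0.469 (0.390 to 0.563) for *HLA-DPA1*, 3.84 (2.35 to 6.47) for *HLA-DMB* and 1.99 (1.36 to 2.91) for *CIITA*, and *HLA-DQB1* turned from 1.69 to 0.949 (0.625 to 1.43). Leaving out cells by their *HLA-DRA* count lowers the class II and *HLA-DRA* ratios by construction. Ratios of genes that go with *HLA-DRA* are not free of this choice either. The 18 cells held 35.5% of the *HLA-DRB1*, 41.5% of the *HLA-DPA1* and 44.7% of the *HLA-DQB1* UMIs of their gate.

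*HLA-DPB1* in CD34/GATA2 and globin cells was the clearest departure from the joint pattern. Megakaryocyte gene cells and cells outside the named groups shared it. Thinned to 5000 UMIs, 31.6% (25.5 to 38.3) of globin and 15.3% (13.4 to 17.3) of CD34/GATA2 cells had an *HLA-DPB1* UMI, against 5.77% (4.35 to 7.48) of granule and 8.47% (6.81 to 10.4) of SPINK2 cells (unthinned, 63.9, 44.9, 18.4 and 26.7%). In unthinned counts, 114 of 219 globin cells (52.1%) had *HLA-DPB1* without *HLA-DRA*, and 10 had the reverse. In CD34/GATA2 cells 433 of 1355 (32.0%) had *HLA-DPB1* without *HLA-DRA* and 136 (10.0%) the reverse, while in SPINK2 cells the numbers were 180 and 177.

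Per *HLA-DRA* UMI there were 5.36 *HLA-DPB1* UMIs (3.98 to 7.33) in globin, 1.84 (1.66 to 2.05) in CD34/GATA2, 0.493 (0.434 to 0.559) in SPINK2 and 0.233 (0.226 to 0.241) in C1Q-positive cells. Megakaryocyte gene cells had 3.47 (2.06 to 6.13) and cells outside the named groups 1.5 (1.34 to 1.68). The order from globin through CD34/GATA2 and SPINK2 to C1Q-positive cells held in each hashtag. Granule cells had no fixed place in it, at 0.748, 0.667, 1.71 and 1.64 from 0252 to 0255. Their interval included 1 in all hashtags but 0253, and in 0255 they were above CD34/GATA2 cells by value. From 0252 to 0255 the ratio was 7.43, 5.88, 3.06 and 5.60 in globin cells, 1.72, 1.91, 2.30 and 1.44 in CD34/GATA2 cells, 0.373, 0.741, 0.684 and 0.403 in SPINK2 cells and 0.222, 0.236, 0.230 and 0.248 in C1Q-positive cells. All 4 hashtags thus placed *HLA-DPB1* above *HLA-DRA* in globin and CD34/GATA2 cells and below it in SPINK2 and C1Q-positive cells, with an interval that included 1 only for SPINK2 cells of 0253. The SPINK2 ratio turned to 1.06 at a mitochondrial limit of 10%, with 99 cells left.

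Between globin and CD34/GATA2 cells, *HLA-DPA1* was 2.19-fold (1.81 to 2.63) and *HLA-DPB1* 1.95-fold (1.71 to 2.23) higher in globin cells. The first passed 2-fold, as 1 of 9 members and 5.44% of 13391 genes did, and no member was 2-fold lower, as 11.4% of genes were. *HLA-DRA* (0.672, 0.497 to 0.892) and *HLA-DRB1* (0.566, 0.410 to 0.766) went the other way, although *HLA-DRA* turned to 2.78 at a mitochondrial limit of 10%, where 10 globin cells were left.

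By hashtag, the class II levels of the myeloid gates and of the CD34/GATA2 gate differed in opposite senses. In C1Q-positive cells the class II level was 3742 CPM in 0252, 2924 in 0253, 4737 in 0254 and 4953 in 0255, a highest to lowest ratio of 1.69 (1.65 to 1.74). In C1Q-negative myeloid cells it was 890.4, 648, 983 and 1255 CPM, a ratio of 1.94 (1.84 to 2.04). Hashtags 0254 and 0255 were both above 0252 and 0253 by level in these 2 gates. The thinned share of C1Q-negative myeloid cells with a class II UMI was 73.1, 71.4, 75 and 68.0%. Their unthinned median was 8, 6, 9 and 7 class II UMIs. In that gate hashtag 0255 was thus highest by level and lowest by share. In CD34/GATA2 cells the levels were 122, 124, 85.9 and 87.2 CPM, so that 0254 and 0255 were below the others, with a ratio of 1.45 (1.31 to 1.60). In SPINK2 cells they were 134, 80.5, 94.8 and 121 CPM, in neither order. The thinned share of SPINK2 cells with a class II UMI was 29.1, 31.0, 26.2 and 25.3%. Hashtag 0253 was thus lowest by level and highest by share.

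**Figure D5:**
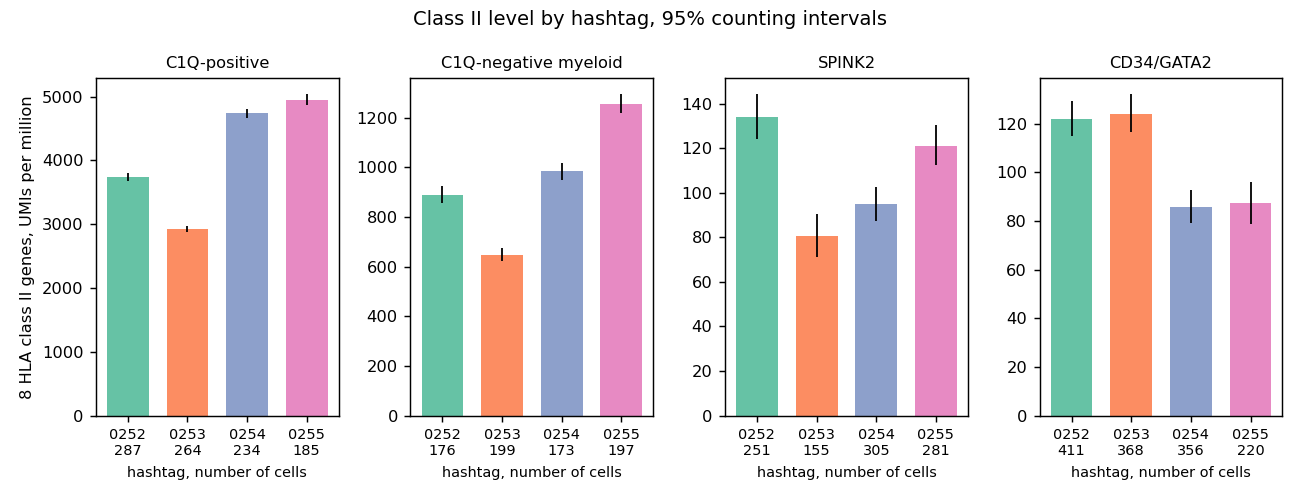
Class II level (8 HLA genes, CPM, axes from 0 and different in each panel) by hashtag in 4 gates, with 95% counting intervals and the number of cells under each hashtag. Hashtags 0254 and 0255 are the higher pair in both myeloid panels and the lower pair in CD34/GATA2 cells.

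Member by member, 8 of 10 in C1Q-positive and 7 of 10 in C1Q-negative myeloid cells had a highest to lowest hashtag ratio of at least 1.5, beside 27.3% of 8978 and 20.1% of 8450 genes with at least 100 UMIs. Hashtags 0254 and 0255 were both above the others for 8 of 10 members in C1Q-positive cells (14.2% of genes) and 9 of 10 in C1Q-negative myeloid cells (18.1%), and both below for none (27.5 and 23.8%). Counts of hashtag order, here and below, rank values without regard to counting error. In C1Q-negative myeloid cells, intervals of 0254 and 0252 overlapped for all of the 9 except *HLA-DRB1* and *CD74*. The members with overlap included *HLA-DRA* (352 and 350 CPM), *HLA-DPB1* (62.1 and 61.2 CPM) and *CIITA* (30.4 and 29.8 CPM). *CIITA* was also among the 8 in C1Q-positive cells, with overlapping intervals of 0255 and 0252. In CD34/GATA2 cells 4 of 6 members passed 1.5-fold (14.5% of genes), 5 of 6 were lower in both 0254 and 0255 (18.2%), and none was higher in both (25.1%). In SPINK2 cells 5 of 7 passed 1.5-fold (14.9%), and 0 of 7 were above in both 0254 and 0255 (22.7%) or below in both (15.0%).

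*HLA-DRA* in C1Q-positive cells was at 1320.4, 959, 1574 and 1600.2 CPM from 0252 to 0255, so that 0253 was lowest and the last 2 were alike. *HLA-DQA1* was at 64.6, 53.2, 124 and 116 CPM, the widest ratio among the members in that gate at 2.34 (1.99 to 2.75). *HLA-DMA* was at 282, 217, 277 and 287 CPM and *HLA-DMB* at 169.6, 101, 151 and 129 CPM, and DM did not share the split. *CIITA* was at 54.5, 36.9, 61.8 and 58.5 CPM, with only 0253 apart from the rest. In CD34/GATA2 cells *HLA-DPB1* was at 38.8, 38.5, 30.0 and 24.5 CPM and *HLA-DPA1* at 17.8, 23.0, 10.2 and 12.7 CPM.

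Isotype shares varied with the hashtag by gate. In C1Q-positive cells DR took 55.6, 55.7, 55.6 and 55.9% of class II UMIs from 0252 to 0255, and DP 25.7, 26.2, 27.2 and 27.8%. DM varied more, at 12.1, 10.9, 9.02 and 8.41%. In SPINK2 cells DR took 53.2, 45.0, 44.8 and 51.4%, and in globin cells 12.6, 12.8, 27.4 (20.1 to 35.7) and 14.8%, with 0254 highest. In C1Q-positive cells, C1Q was at 1628, 1372, 1573 and 1362 CPM and did not follow class II. *SPP1* in C1Q-positive cells was at 1473, 3712, 1228 and 1044 CPM, highest in the hashtag with the lowest class II level. The share of cells in the C1Q-positive gate ran from 11.8 to 13.4% over hashtags. Without hashtag 0253 the highest to lowest ratio of the class II level in C1Q-positive cells was 1.32 (1.29 to 1.35). Each hashtag was 1 pool of 3 wells, so that hashtag, pool and coating cannot be told apart.

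The wider pathway was read from 25 genes of class II regulation, processing and costimulation, listed with earlier results known. Between C1Q-positive and C1Q-negative myeloid cells, 8 of the 22 with enough UMIs were at least 2-fold higher and none was 2-fold lower, beside 7.73 and 2.69% of all genes. They were the cathepsins *CTSL* (7.83-fold, 6.30 to 9.84) and *CTSS* (2.21-fold), *HLA-DOA*, a chain of the DM inhibitor DO (4.06-fold), the costimulator *CD80* (3.20-fold), *HLA-DRB5* (2.96-fold, with its reads uncertain), the thiol reductase *IFI30* (2.82-fold), *MARCH1* (2.46-fold) and the transcription factor *IRF4* (2.42-fold). Genes of the enhanceosome that CIITA joins lay closer to 1, with *RFX5* at 1.43, *RFXAP* at 0.732, *RFXANK* at 0.873, *NFYA* at 0.907, *NFYB* at 0.802, *NFYC* at 0.998 and *CREB1* at 1.03.

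Between SPINK2 and CD34/GATA2 cells, 6 of 18 pathway genes were at least 2-fold higher in SPINK2 cells and none lower, beside 4.92 and 6.48% of all genes. These were *IRF8*, a transcription factor of monocyte and dendritic cell development (14.4-fold, 11.2 to 18.8), *IFI30* (6.46-fold, from 19 and 4 UMIs), the costimulator *CD86* (6.16-fold), the protease gene *LGMN* (3.81-fold), *MARCH1* (3.66-fold) and *CTSS* (3.54-fold). C1Q-negative myeloid over SPINK2 cells had 8 of 21 pathway genes higher and none lower. All 10 members were higher (5.33% of 13519 genes) and none lower (5.47%), from *HLA-DPB1* at 3.61-fold (3.20 to 4.10) to *HLA-DQA1* at 24.3-fold (12.4 to 54.3). In globin over CD34/GATA2 cells, 2 of 17 were higher, *CTSL* (2.99-fold) and *LGMN* (2.86-fold), and 2 were lower, *CD86* (0 against 47 UMIs) and *IRF8* (0.405 from 4 and 67 UMIs, with an interval of 0.107 to 1.09 that included 1). Of all genes 5.44% were higher and 11.4% lower, so that the count of lower genes was at the share of all genes.

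The genes closest to the mean of the 8 HLA genes, over 34 sums of a gate and a hashtag with at least 20 cells, were *ZFP36L1*, an RNA-binding decay factor (Pearson r = 0.976 of log2(CPM + 1)), *HLA-DOA* (0.964), *AGR2*, a protein disulfide isomerase (0.963), *CTA-384D8.34* (0.947) and *GRN*, progranulin (0.946). Over the 25 sums without C1Q-positive, C1Q-low or collagen-transcript cells they were *ZFP36L1* (0.944), *AGR2* (0.916), *ACTG1* (0.913), *KCNQ3* (0.906) and *GRN* (0.904). The sums share 1 library, and the gates set most of the spread. Among the members in the 25 sums, *HLA-DPB1* had the lowest correlation with the mean of the other HLA genes (0.502), followed by *HLA-DMB* (0.828) and *HLA-DPA1* (0.876).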

How the data were processed

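Droplet-based scRNA-seq (10x 3′ v3.1) was made of nonadherent day 5 EHT cells. The authors ran Cell Ranger 6.0.1 (per the labels) with default settings on hg19 and deposited raw counts of UMIs per gene and barcode, not normalized, and a hashtag call per barcode. All 10836 barcodes of the counts had a call. The hashtag calls were used as deposited.

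Barcodes with 1 hashtag were filtered and grouped by gates as described above. Poisson, Clopper-Pearson and exact conditional intervals at the 95% level cover counting error only. Genes compared between gates had at least 20 UMIs, between hashtags or between the top and bottom cells by class II level at least 100. Thinning drew 5000 UMIs per cell and left out shallower cells (12 C1Q-positive, 12 C1Q-negative myeloid, 0 SPINK2, 0 CD34/GATA2). Scrublet (scanpy 1.11.5) called 99 of 8488 cells (1.17%) and removed none in the values given. Python 3.11.15, numpy 2.4.6, scipy 1.17.1, pandas 2.3.3 and matplotlib 3.10.9 were used. Of 58 markers in 10 lists, 56 were found by symbol. The code was tested on simulated counts.

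The members and lists were chosen with earlier results of these data known. Named genes are the members, pathway genes past 2-fold, the 5 genes most like the members, the 5 highest and lowest between those top and bottom cells, and gate genes. Marker genes, *SPP1*, *MPO* and others singled out, and the correlations of single members, were chosen after their values were seen. Alternatives changed gates, limits, denominator, depth, doublets and hashtags in turn. No comparison of coatings was made.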

Additional observations from a re-analysis of the deposited data

Results flagged for a closer look

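Barcodes left out of every comparison also carried class II. Among the 809 barcodes called negative for a hashtag and within the limits, 12 were C1Q-positive, and their class II level was 1748 CPM (1530 to 1990), with a median depth of 10886 UMIs. Among the 834 called doublets within the limits, 153 were C1Q-positive, with 3056 CPM (2997 to 3114) and a median of 23713 UMIs. Both are above the 57.1 CPM of granule cells, and below the 3974 CPM of C1Q-positive cells with 1 hashtag. These data were outside the main measurement, and the part of mixed droplets was not tested.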

How the results depend on the processing

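Of 91 values of the 5 leading results under 19 alternatives, 58 stayed within the counting interval, 33 moved beyond it and 0 reversed. The class II ratio of C1Q-positive over C1Q-negative myeloid cells (4.25) was 2.5 with the C1Q gate at 1 UMI, 5.06 at 10, 5.34 and 3.01 with the myeloid gate at 300 and 800 CPM, 5.52 with the SPINK2 gate at 10 UMIs, 6.54 at a mitochondrial limit of 10%, 4.05 with no limit on UMIs or genes, and 4.06 to 4.52 leaving out 1 hashtag. The SPINK2 over CD34/GATA2 ratio (1.02) was 1.36 with the SPINK2 gate at 10 UMIs, 0.556 at the 10% limit, 1.15 as a mean over cells, 1.13 thinned, and 0.942 to 1.14 leaving out 1 hashtag. The DR share of C1Q-positive cells stayed within its interval. Their *CIITA* level (51.9 CPM) was 33.1 and 56.5 CPM with the C1Q gate at 1 and 10 UMIs, 31.5 at the 10% limit, 58.0 as a mean over cells, 59.9 without mitochondrial UMIs in the denominator, 58.2 thinned, and 48.8 to 58.1 leaving out 1 hashtag. The hashtag ratio (1.69) was 1.65 and 1.59 with these C1Q gates, 1.97 at the 10% limit, 1.76 with no limit, 1.81 as a mean over cells, 1.80 thinned, and 1.32 (without 0253) to 1.69 leaving out 1 hashtag. Allowing up to 2 C1Q UMIs in the C1Q-negative gates, chosen after seeing the data, gave 3.52 and 1.14 for the first 2 ratios. Leaving out cells with at least 10 *HLA-DRA* UMIs, also chosen then, gave 0.727 for the second, which this cut lowers by construction. Of 1089 values of 61 further results, 894 stayed, 191 moved and 4 reversed: *HLA-DQB1* in SPINK2 over CD34/GATA2 cells (0.949 without those cells), *CD74* in SPINK2 over CD34/GATA2 cells (1.05 with the SPINK2 gate at 10 UMIs), *HLA-DRA* in globin over CD34/GATA2 cells (2.78) and *HLA-DPB1* over *HLA-DRA* in SPINK2 cells (1.06), the latter pair at the 10% limit. The cause was not tested. No paired analysis was possible because there is 1 library.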

Other observations

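The 87 cells with collagen transcripts held class II at 371 CPM (339 to 406), but hashtag 0255 supplied 55 of them and 380 of their 485 class II UMIs. Its cells were at 572 CPM (516 to 633) with 56.6% DR and 28.2% DP, and the 32 cells of the other hashtags at 163 CPM (134 to 198) with 35.2% DR (26.2 to 45.2) and 49.5% DP (39.6 to 59.5). *HLA-DRA* was present in 51.7% of the 87, with a median of 1 UMI and a highest count of 33. The C1Q level of the 0255 cells was 121 CPM, against 11.6 to 56.5 CPM for those of the other hashtags. The split by 0255 was added after seeing the data. Whether these droplets also held a C1Q-positive cell was not tested. In the 700 cells with 1 or 2 C1Q UMIs, the class II level was 591 CPM, with 55.1% DR and 27.4% DP, and 51.2% of them had no class II UMI at 5000 UMIs.

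The genes most like *HLA-DPB1* were sought over the 25 sums without C1Q-positive, C1Q-low or collagen-transcript cells. They were *CST3*, the protease inhibitor cystatin C (Pearson r = 0.951), *BTG2*, an antiproliferative gene (0.935), *TYROBP*, a signaling adaptor of myeloid and NK cells (0.916), *MYL12A* (0.901) and *UQCRB* (0.885). None of these 5 was among the genes most like the mean of the 8 HLA genes. This list was computed after the *HLA-DPB1* levels were seen.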
